A study of Mus musculus with 7 samples.

Results

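The imprinted Gnas locus on mouse chromosome 2 was represented by 3 of the 48440 genes in an islet count table, namely Gm20721, Nespas and Gnas, each as 1 row of counts. Gnas and Nespas were taken by name, and Gm20721 was added because its exons lie opposite those of Gnas and because it had more counts than any other gene in the table. The level of Gm20721 was therefore selected on these data and is described without a test, whereas the comparison of treatments was not used in that choice. The libraries came from islets of female, prediabetic NOD.hALOX12 mice, in which the coding region of mouse Alox15 is replaced by human ALOX12 under the mouse regulatory elements on the nonobese diabetic (NOD) background. Both groups carried this replacement in all cells, so the comparison holds no mice with an intact Alox15 gene. Mice of the 2 groups received vehicle (4 libraries) or VLX-1005 (3 libraries, the spray-dried dispersion SDD), an oral inhibitor of human 12-lipoxygenase, at 30 mg/kg per day for 4 weeks, and islets were taken at 10 weeks of age, handpicked and allowed to recover overnight. Whether the libraries of a group stem from different mice is not stated in the labels, and the p-values therefore cover the spread between these samples only, which may be technical.

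Gnas encodes the stimulatory G protein alpha subunit (Gsα), which couples receptors such as the GLP-1 receptor of beta cells to adenylyl cyclase and cAMP and so raises insulin secretion. The locus is a standard example of genomic imprinting. Its alternative promoters splice different first exons to a shared set of downstream exons, with the chromogranin-like protein NESP55 made from the maternal allele and the extra-large form XLαs from the paternal allele, while Gsα itself comes from both alleles in most tissues. Nespas is a noncoding antisense transcript of the paternal allele that runs through the NESP55 exons and is needed for their silencing on that allele. Gm20721 is a predicted gene with a protein-coding annotation, and no function is given for it here.

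In GENCODE M21 (build GRCm38, the same as mm10) Gnas (ENSMUSG00000027523.19) lies on the forward strand of chromosome 2 from 174284320 to 174346744, with 24 annotated transcripts whose exons merge into 19 blocks of 11186 bp. Gm20721 (ENSMUSG00000090625.1) lies on the reverse strand from 174330319 to 174346712 and has a single transcript of 13 exons and 1484 bp. Of those exons, 12 lie over Gnas exons, and 1469 bp (99.0%) of the Gm20721 exon sequence is the complement of Gnas exon sequence, with 1142 bp (77.0%) over Gnas coding sequence. The edges coincide closely. Of the 12 exons, 4 share both ends with a Gnas exon, and 7 share the left and 8 the right end by coordinate.

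Nespas (ENSMUSG00000086537.7) lies on the reverse strand from 174281237 to 174295436, with 3 transcripts and 5 exon blocks of 3143 bp in all. Only 1 of these blocks overlaps Gnas exons, lying across 2 Gnas exon blocks over 988 bp (31.4%), of which 759 bp are coding and belong to the exon near the upstream end of the locus that encodes NESP55. Gm20721 and Nespas share no exon base, and 34882 bp separate them. Together they leave 8729 bp of Gnas exon sequence with neither gene on the other strand.

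**Figure D1:**
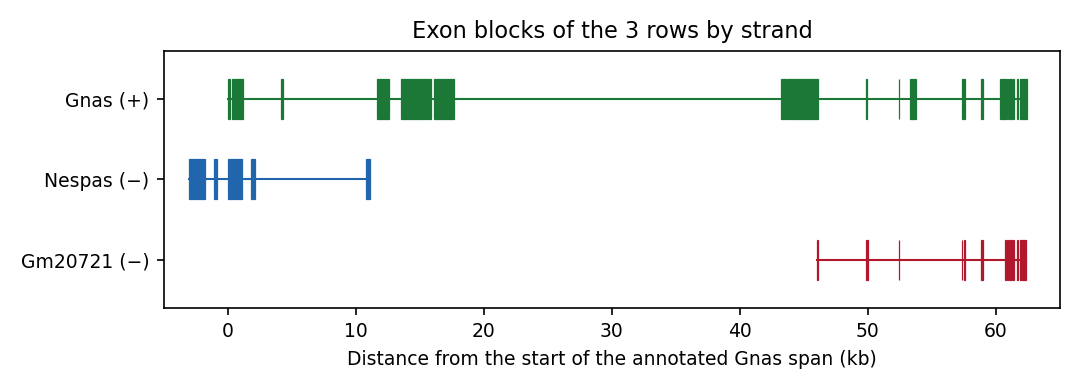
Exon blocks (boxes) of Gnas on the forward strand and of Nespas and Gm20721 on the reverse strand, against distance in kb from the start of the annotated Gnas span. The Gm20721 boxes sit under the downstream Gnas exons (12 of 13), and Nespas covers the upstream end.

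Pairs of exon sequences show this layout, since reads from either strand of such an exon differ only in orientation. The first pair is an internal coding exon that both genes hold with identical ends (chr2:174345383-174345562). The capitals mark the same 12 positions, read on each strand.
Gnas exon, forward strand: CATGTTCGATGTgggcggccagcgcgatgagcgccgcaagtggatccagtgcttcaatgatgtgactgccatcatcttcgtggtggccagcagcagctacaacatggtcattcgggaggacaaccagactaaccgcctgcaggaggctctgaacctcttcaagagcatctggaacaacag
Gm20721 exon, reverse strand: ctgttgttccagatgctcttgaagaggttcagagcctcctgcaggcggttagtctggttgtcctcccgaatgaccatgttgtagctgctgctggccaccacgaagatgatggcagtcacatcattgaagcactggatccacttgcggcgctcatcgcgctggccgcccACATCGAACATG

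The neighbouring exon shows one of the small offsets. Gnas has it from 174345228 to 174345301 (74 bases) and Gm20721 from 174345225 to 174345301 (77 bases), and the capitals mark the 3 bases that lie beyond the end of the Gnas exon.
Gnas exon with the shifted end, forward strand: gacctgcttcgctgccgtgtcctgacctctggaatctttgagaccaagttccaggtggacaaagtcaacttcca
Gm20721 exon with the shifted end, reverse strand: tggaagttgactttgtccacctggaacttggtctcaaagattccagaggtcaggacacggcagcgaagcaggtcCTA

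The third pair is a stretch of 120 bases of NESP55 coding sequence, where Nespas crosses Gnas (chr2:174284994-174285113). The capitals again mark the same 12 positions on each strand.
Gnas upstream coding exon, forward strand: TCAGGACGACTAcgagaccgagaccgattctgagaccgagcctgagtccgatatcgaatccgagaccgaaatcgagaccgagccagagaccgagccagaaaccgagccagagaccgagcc
Nespas exon, reverse strand: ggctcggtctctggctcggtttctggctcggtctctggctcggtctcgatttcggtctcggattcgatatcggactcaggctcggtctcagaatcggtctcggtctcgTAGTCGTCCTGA

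All 14 stretches in which a Gm20721 or Nespas exon lies over a Gnas exon, 2457 bases in sum, were exact reverse complements of the Gnas transcripts (12 for Gm20721 and 2 for Nespas). The libraries were prepared with a strand-specific kit, but the strand setting used in counting is not given in the sources used here. Reads from Gnas and from the genes opposite it can therefore not be assigned with certainty, and each gene is named as it was counted.

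The libraries held 1024586 to 1430785 counts, and a count of 0 allows up to 3 counts, or 2.10 to 2.93 CPM (a count scaled to its library total). Such limits and the intervals of shares cover counting error only. The replaced gene Alox15 had 0 counts in 6 libraries and 1 count in VLX-1005 replicate 1. Each of the 21 islet endocrine markers had at least 1 count as annotated, with a summed level of 1270 to 1465 CPM in vehicle islets and 1048 to 1910 CPM after VLX-1005. Over the vehicle and VLX-1005 libraries the insulin genes Ins1 and Ins2 had only 435 and 286, and 757 and 448 counts. Pcsk2 had 169 and 111 counts, against 80713 and 51750 for Pcsk2os1 opposite it. With the strand setting not given, marker sums as annotated need not measure the level of these genes. The 17 acinar markers summed to 37.4 to 122 CPM in vehicle islets and 44.0 to 142 CPM after VLX-1005, the 8 duct markers to 66.4 to 91.3 and 59.4 to 90.8 CPM, and the 16 immune markers to 241 to 301 and 279 to 315 CPM, with the macrophage marker Adgre1 at 0. The 11 mesenchymal and endothelial markers summed to 2.61 to 11.9 CPM in vehicle islets and 14.7 to 19.5 CPM after VLX-1005. The groups did not overlap for this last list, but its sums were near the floor. Its lowest vehicle sum lay within the limits given above for a count of 0, and 0 of its genes passed the filter on low counts. Its part in the results that follow was not tested.

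Gm20721 held the largest number of counts of any gene in the table, with 412012 of all counts (4.75%). It had 55134, 64736, 57533 and 65808 counts in vehicle replicates 1 to 4, and 70599, 41154 and 57048 in VLX-1005 replicates 1 to 3. As a share of the library these were 4.70% to 5.02% in the vehicle group and 4.93%, 4.02% and 4.46% after VLX-1005, where the upper 95% exact Clopper-Pearson bound lay at most 0.0400 percentage points above the share. The vehicle libraries lay close together and VLX-1005 replicate 2 was lowest, while VLX-1005 replicate 1 fell within the vehicle range. The group means were 4.92% ± 0.146 (SD, n = 4) and 4.47% ± 0.459 (SD, n = 3).

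Nespas was the 53rd gene by total counts (17923). Vehicle replicates 1 to 4 had 1804, 2323, 1863 and 2886 counts, and VLX-1005 replicates 1 to 3 had 3865, 2551 and 2631. Each library gave it far fewer counts than Gm20721, between 3.13% and 5.83% of the counts of the locus.

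Gnas, the gene that names the locus and encodes an abundant G protein subunit, held few counts as annotated, 307 over all libraries (rank 2258). There were 25, 40, 38 and 44 counts in vehicle replicates 1 to 4 and 56, 64 and 40 in VLX-1005 replicates 1 to 3. The row was thus well above a count of 0 in every library but rested on few reads, and the upper 95% Clopper-Pearson bound of its share reached 1.48 times the share in the widest case. Across the table, Gm20721 had 1342 counts for each count of Gnas.

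Levels of different genes were compared per kb of merged exon, on the scale of CPM per kb. From here on CPM is scaled by edgeR normalization factors (TMM) unless stated otherwise. Gm20721 had 34250 ± 1970 CPM per kb in the vehicle group (n = 4) and 30122 ± 3006 after VLX-1005 (n = 3). Nespas had 587 ± 104 and 768 ± 97.4 CPM per kb, and Gnas had 2.75 ± 0.589 and 3.96 ± 1.43. The order Gm20721, Nespas, Gnas held in all 7 libraries without overlap between genes, the lowest Gm20721 library being at 26994 CPM per kb and the highest Nespas library at 853. In sum the locus took 5.10% ± 0.167 of the vehicle counts (n = 4) and 4.72% ± 0.470 of the VLX-1005 counts (n = 3).

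Other annotated genes nearby had few counts. Of 18 rows of the table within 200 kb of Gnas, 15 were not members, 6 of these had 0 counts in all libraries, and the remaining 9 had 811 counts in sum, against 430242 for the locus. Most of those came from Nelfcd, a subunit gene of the negative elongation factor downstream of Gnas, with 110, 92, 40 and 117 counts in the vehicle libraries and 102, 123 and 80 in the VLX-1005 libraries. The microRNA genes Mir296 and Mir298, on the same strand as Nespas and beyond its 3′ end, were at 0 in every library. The small RNA genes Gm27869 and Gm27849, which lie opposite Nespas, had 32 and 19 counts.

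Against the other genes at the top of the table, Gm20721 was first by counts but not per length. Its mean of 32481 CPM per kb lay below those of Gm28902, opposite the dense-core granule gene Resp18 (53684), and Gm10252, opposite the ferritin light chain gene Ftl1 (37990). Pcsk2os2, second by counts, with the prohormone convertase gene Pcsk2 on the other strand, had 9180 CPM per kb. These genes were alike in that the gene on the other strand had few counts, with 4701 counts of Gm10252 for each count of Ftl1 and 972 counts of Pcsk2os2 for each count of Pcsk2. They differed in the extent of overlap, which was 99.0% of exon sequence for Gm20721 against 42.7% for Gm10252 and 2.87% for Pcsk2os2. These are descriptions with no test, since the genes were taken by their counts.

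The comparison of treatments asked whether VLX-1005 altered the level of the locus. None of the 3 genes passed the test used across the table. The filter on low counts kept all 3, and 0 of them were called in the edgeR quasi-likelihood test at a Benjamini-Hochberg adjusted p below 0.05, a threshold passed by 100 of 4218 genes tested (2.37%). At an unadjusted p below 0.05 the same test gave 759 genes in the table and 1 of the 3, Nespas. As these are bulk samples, fewer cells of a type and less RNA per cell cannot be told apart.

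With TMM scaling, Gm20721 had 46773, 50710, 53407 and 52420 CPM in vehicle replicates 1 to 4, and 48955, 40058 and 45088 CPM in VLX-1005 replicates 1 to 3. VLX-1005 replicates 2 and 3 were below all vehicle libraries and VLX-1005 replicate 1 was not, so the groups overlapped. The means were 50827 ± 2924 CPM (n = 4) and 44700 ± 4461 CPM (n = 3), which gave a log2 fold change of −0.19 ± 0.10 (SE). The edgeR p of 0.0929 did not pass (adjusted p = 0.362). Without VLX-1005 replicate 2 the log2 fold change was −0.11.

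Nespas had 1530, 1820, 1729 and 2299 CPM in vehicle islets and 2680, 2483 and 2079 CPM after VLX-1005. The groups overlapped through vehicle replicate 4, the highest of its group, which exceeded VLX-1005 replicate 3. The means were 1845 ± 326 CPM (n = 4) and 2414 ± 306 CPM (n = 3), which gave a log2 fold change of 0.39 ± 0.14 (SE). The edgeR p of 0.0174 failed the adjustment (adjusted p = 0.188). In 16 other settings its log2 fold change lay between 0.26 and 0.52, with an edgeR or DESeq2 adjusted p of 0.101 to 0.882.

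Gnas had 21.2, 31.3, 35.3 and 35.05 CPM in vehicle islets and 38.8, 62.3 and 31.6 CPM after VLX-1005. VLX-1005 replicate 2 stood above all other libraries and VLX-1005 replicate 3 lay among the vehicle libraries. The means were 30.7 ± 6.59 CPM (n = 4) and 44.2 ± 16.0 CPM (n = 3), with a log2 fold change of 0.51 ± 0.29 (SE). The edgeR p of 0.103 did not pass (adjusted p = 0.380). Without VLX-1005 replicate 2 the log2 fold change was 0.20. In a fit that held the ribosomal RNA share as a covariate it was −0.079 ± 0.38 (SE), a negative value within its error of 0.

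**Figure D2:**
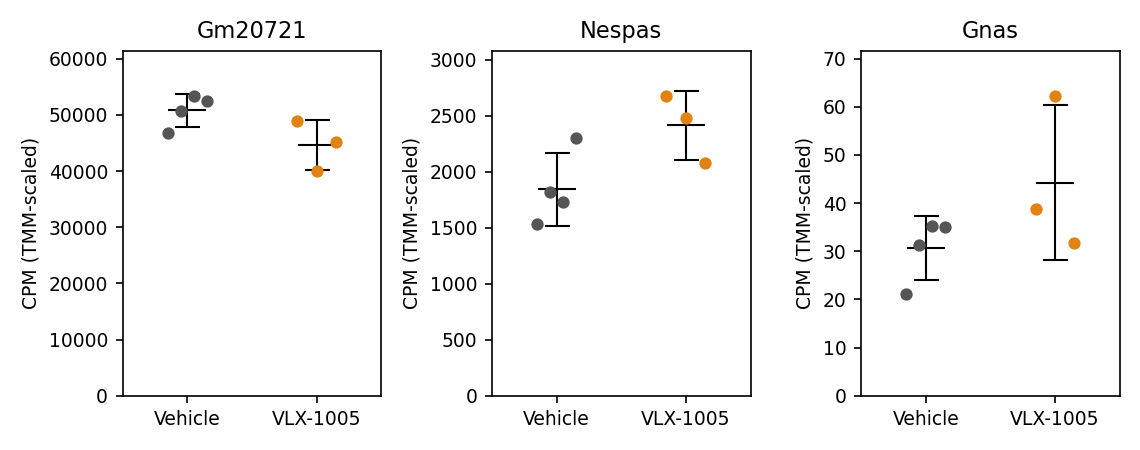
TMM-scaled CPM of Gm20721, Nespas and Gnas (vertical axes, from 0, a separate scale for each gene) by group, with 1 point per library and the mean ± SD (4 vehicle and 3 VLX-1005 libraries). The groups overlap for all 3 genes, with means of 50827 and 44700 CPM for Gm20721, 1845 and 2414 for Nespas, and 30.7 and 44.2 for Gnas.

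Ribosomal RNA, read from the gene CT010467.1, was not called between the groups (log2 fold change 0.36 ± 0.13 SE, edgeR adjusted p = 0.193). All its shares after VLX-1005 lay above all vehicle shares, though its highest vehicle share was close to its lowest share after VLX-1005. CT010467.1, a ribosomal RNA gene, took 2.03%, 1.69%, 2.10% and 2.05% of the counts in vehicle islets and 2.55%, 3.14% and 2.15% after VLX-1005 (upper 95% Clopper-Pearson bound at most 0.0339 percentage points above). VLX-1005 replicate 2, with the largest share, was also the library with the lowest Gm20721 and the highest Gnas level. With that share as a covariate the log2 fold changes were −0.09 ± 0.15 (SE) for Gm20721 and 0.26 ± 0.21 (SE) for Nespas. No gene of the table was called in that fit (0 in edgeR, with 260 at an unadjusted p below 0.05). Because the share separated the groups, the fit cannot tell its part from that of treatment. The part of ribosomal RNA in these differences was otherwise not tested. Casp9, a caspase gene with 1.81% of its exon sequence opposite Cela2a (an elastase gene of acinar cells), ranged from 0.681% to 2.75% of the counts with vehicle and from 0.697% to 1.68% with VLX-1005, and with its level as a covariate the log2 fold changes were −0.19, 0.36 and 0.54 for Gm20721, Nespas and Gnas.

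**Figure D3:**
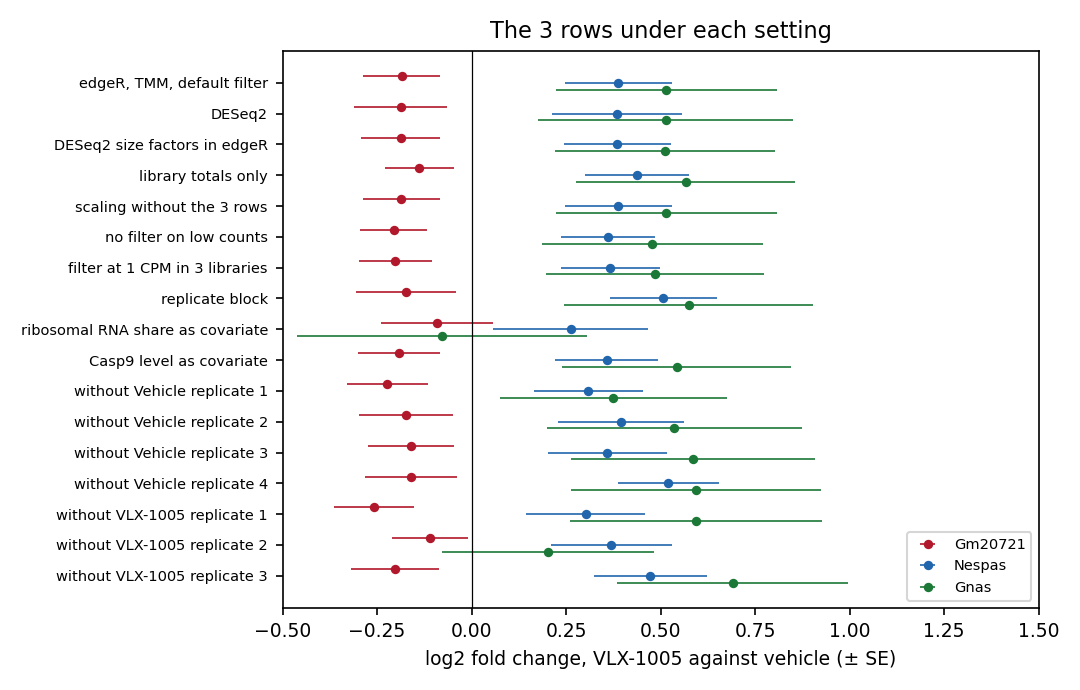
Log2 fold change of VLX-1005 against vehicle (horizontal axis, points ± SE) for the 3 genes under each setting of the fit (vertical axis). Gm20721 lies below 0 throughout (−0.26 to −0.09) and Nespas above 0 throughout (0.26 to 0.52). Gnas lies above 0 except with ribosomal RNA share as a covariate (−0.079 ± 0.38). No point was called.

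A ratio of counts within a library does not depend on scaling between libraries, and asks whether the genes of the locus moved relative to each other. Nespas had 32.7, 35.9, 32.4 and 43.9 counts for each 1000 Gm20721 counts in vehicle replicates 1 to 4, and 54.7, 62.0 and 46.1 in VLX-1005 replicates 1 to 3. All VLX-1005 libraries were above all vehicle libraries, with vehicle replicate 4 and VLX-1005 replicate 3 close to each other. The means were 36.2 ± 5.33 (n = 4) and 54.3 ± 7.94 (n = 3), and the log2 ratios differed by 0.58 with a two-sided exact permutation p of 0.0571 over 35 splits (adjusted p = 0.0571 over 2 ratios).

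Gnas had 0.453, 0.618, 0.660 and 0.669 counts for each 1000 Gm20721 counts in vehicle islets and 0.793, 1.56 and 0.701 after VLX-1005. The groups did not overlap, but VLX-1005 replicate 3 exceeded vehicle replicate 4 only slightly. The means were 0.600 ± 0.100 (n = 4) and 1.02 ± 0.469 (n = 3), and the log2 ratios (0.5 added to each count) differed by 0.68, with a two-sided exact permutation p of 0.0286, the smallest this design can give (adjusted p = 0.0571). Without VLX-1005 replicate 2 the difference was 0.33. Neither ratio passed after adjustment, and the 2 ratios share Gm20721 as their denominator.

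The same separation was common in the table. Taken as a ratio to Gm20721, 577 of 4217 genes (13.7%) had every VLX-1005 library above every vehicle library and 92 had every one below, and the median difference of all genes was 0.18 on the log2 scale. The ratios of Nespas and Gnas lay above that median but are not set apart from the other genes by a test.

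**Figure D4:**
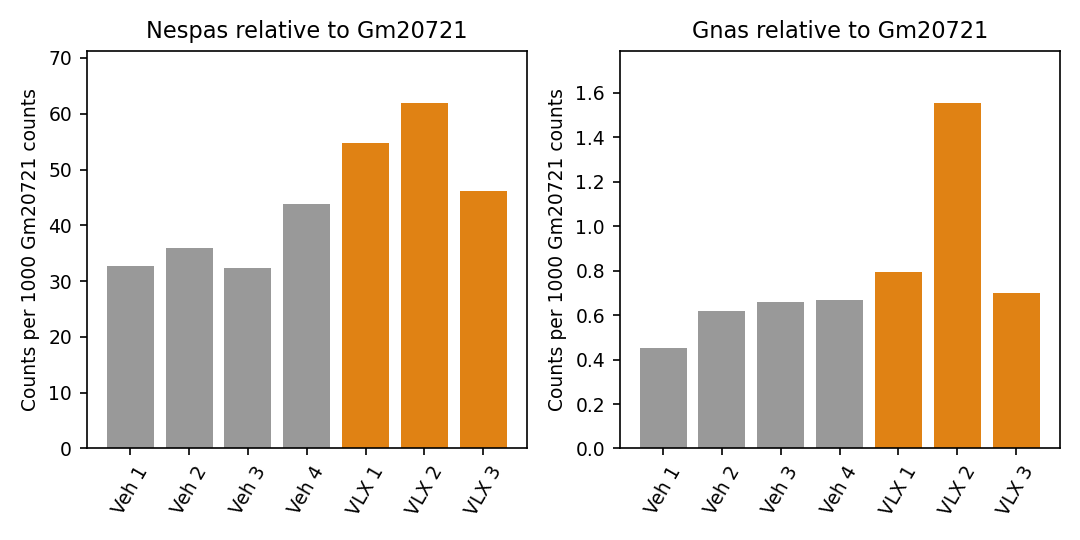
Counts of Nespas (left) and Gnas (right) for each 1000 counts of Gm20721 (vertical axes, from 0), 1 bar per library, vehicle in grey and VLX-1005 in orange. For Nespas the vehicle bars reach 43.9 and the VLX-1005 bars start at 46.1, and for Gnas the vehicle bars reach 0.669 and the VLX-1005 bars start at 0.701.

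Across the 7 libraries Gm20721 and Nespas varied differently. Likeness was measured as the root mean square difference between log2 CPM profiles, each centred on its own mean over the 7 libraries, among 1401 genes with a mean of at least 100 CPM. The median gene differed from Gm20721 by 0.21, and Nespas, its neighbour on the same strand, differed by 0.34 (rank 1113). This measure also grows with how much a gene varies. A gene that hardly changed between libraries would score low, so a small difference need not mean that a gene followed Gm20721. The genes nearest to Gm20721 were Pigb (0.0387), Gm20536 (0.0502), Dnajc14 (0.0503) and 1700037C18Rik (0.0528).

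Each of these 4 lies opposite another gene, in this order Ccpg1, Tgoln1, Ormdl2 and Naa60, and their log2 fold changes ran from −0.22 (Dnajc14) to −0.16 (Pigb), with none called. Each of the 10 genes with the most counts also had a gene on the other strand. How many of the 1401 genes compared had one was not counted, so this layout does not set the 4 apart. Pigb encodes a mannosyltransferase of GPI-anchor synthesis and Dnajc14 a chaperone cofactor of the endoplasmic reticulum. The profiles share the same 7 libraries and their scaling, and the values are a description.

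**Figure D5:**
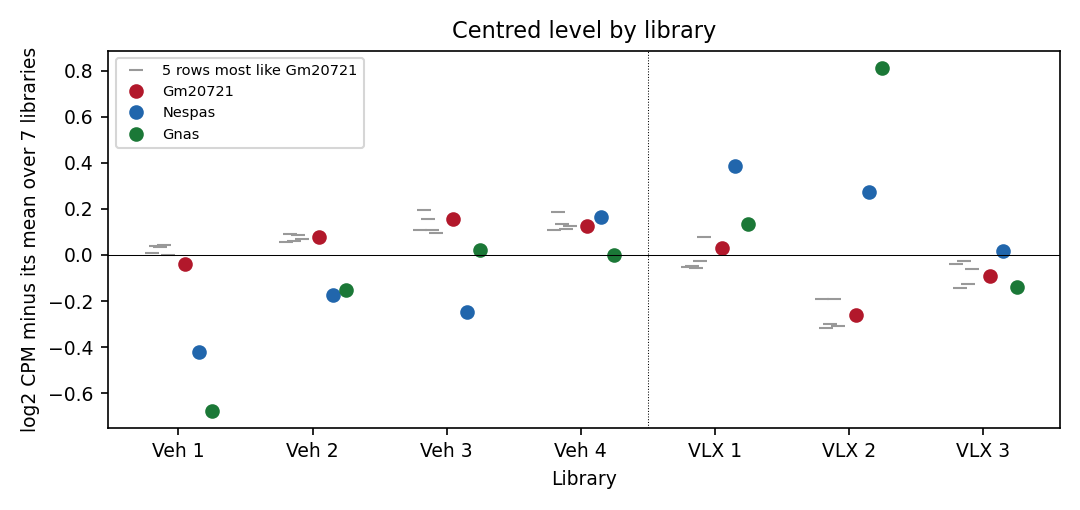
Log2 CPM minus its mean over the 7 libraries (vertical axis) for Gm20721, Nespas, Gnas (points) and the 5 genes most like Gm20721 (grey dashes), by library (horizontal axis; Veh is vehicle, VLX is VLX-1005). In VLX-1005 replicate 2 Gm20721 and the grey dashes are low (−0.26 for Gm20721), while Nespas (0.28) and Gnas (0.81) are high.

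Other imprinted genes were read in the same fit, each by its own row and, where one existed, through the gene with the longest exon overlap opposite it. Of 62 imprinted genes in the table, 18 had 0 counts and 14 were tested, including Nespas and Gnas. No member was called, 6 had higher and 8 lower values, and the median log2 fold change was −0.02, against −0.01 for all genes tested. Commd1, a copper and NF-kappaB regulator gene, was the next after Nespas by p, with 233 ± 54.8 CPM in the vehicle group (n = 4) and 168 ± 23.4 CPM after VLX-1005 (n = 3), which gave a log2 fold change of −0.47 ± 0.19 (adjusted p = 0.202 in edgeR). Copg2, a coatomer subunit gene opposite Mest, had one of −0.22 ± 0.14 (adjusted p = 0.431 in edgeR).

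Of 23 genes opposite imprinted genes, 16 were tested, 5 had higher and 11 lower values, and 0 were called (median −0.13). The tallies are not separate. Commd1 (412 bp opposite Zrsr1), Gnas, Copg2, Mest, Kcnq1ot1 and Igf2os were counted both here and among the imprinted genes above. Gm20721 had by far the most counts of these, and without the members the rest summed to between 3880 and 5121 CPM (scaled to library totals) over the 7 libraries. Gm26906, opposite the maternally expressed noncoding gene Meg3, had a log2 fold change of −0.69 ± 0.27 (adjusted p = 0.202 in edgeR). R74862, opposite the tetraspanin gene Cd81, had one of 0.26 ± 0.14 (adjusted p = 0.348 in edgeR).

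Gsα works in a heterotrimer and hands its signal to adenylyl cyclases. Of 27 G protein subunit and chaperone genes, 6 were tested by their own row, with 0 called, 2 higher and 4 lower (median −0.25). Besides Gnas they included Gnal (852 bp opposite Mppe1), whose product is the olfactory relative of Gsα. It had 156 ± 19.1 CPM in vehicle islets and 169 ± 21.7 CPM after VLX-1005 (a log2 difference of 0.12 ± 0.16). Ric8a, a chaperone of G alpha subunits with 418 bp opposite Sirt3, had 108 ± 23.1 and 92.3 ± 19.1 CPM (−0.22 ± 0.22). The genes opposite this family gave 6 tests, with 0 called, 5 higher and 1 lower (median 0.18). The lower one was Gm20721, and Gm11696, opposite Gna13, had the smallest p, with 204 ± 10.3 and 304 ± 128 CPM (log2 fold change 0.57 ± 0.22, edgeR adjusted p = 0.201).

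Downstream of Gsα, 6 of 47 genes of adenylyl cyclases and cAMP effectors were tested by their own row, 3 higher and 3 lower with a median of −0.03 and 0 called. Prkar1a, the regulatory subunit gene of protein kinase A, had 6.40 ± 2.79 CPM in vehicle islets and 12.8 ± 5.11 CPM after VLX-1005 (a log2 difference of 0.96 ± 0.47, edgeR adjusted p = 0.307). Of 8 genes opposite this group 5 were tested, 2 higher and 3 lower, with 0 called. Gm29331, opposite the cyclase gene Adcy6, had 511 ± 72.9 and 519 ± 23.0 CPM, and Rapgef4os2, opposite the cAMP sensor gene Rapgef4, had 285 ± 27.5 and 267 ± 8.02 CPM.

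Among 30 receptor genes that act through Gs or Gi in islets, 12 had 0 counts and 5 were tested, with 0 called (2 higher, 3 lower, median −0.02). Glp2r, which encodes the receptor of glucagon-like peptide-2, had 12.1 ± 4.05 CPM in vehicle islets and 28.3 ± 17.3 CPM after VLX-1005 (a log2 difference of 1.19 ± 0.48, edgeR adjusted p = 0.212). Ptger4, a prostaglandin E2 receptor gene, had 240 ± 22.6 and 236 ± 7.22 CPM (log2 fold change −0.02 ± 0.13). None of the 3 genes opposite a receptor gene passed the filter on low counts. The lists were chosen with earlier results of these data known, and their counts and medians stand beside the 2.37% of all genes called.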

How the data were processed

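Islet RNA of 7 libraries was analysed. The deposited table holds unnormalized read counts, 1 row for each Ensembl gene. Per the study's methods and the submitters' processing notes, polyadenylated RNA was sequenced from strand-specific libraries, reads were trimmed with Trimmomatic, checked with FastQC, aligned to mm10 with HISAT2, counted with HTSeq and compared with DESeq2. For the strand setting, the annotation release and all versions, the value is not given in the sources used here.

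Genes were placed with GENCODE release M21. Of 48440 genes 48058 had a position and 382 did not. Exon overlap between strands was computed with bedtools 2.31.1, and sequences came from the GENCODE transcripts.

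VLX-1005 was compared to vehicle in edgeR 4.0.16 by its quasi-likelihood test (R 4.3.3; TMM factors, filterByExpr, robust, two-sided, Benjamini-Hochberg over 4218 genes), which was tested on simulated data. Positive log2 fold changes mean higher with VLX-1005. Profiles of log2 CPM used a prior count of 2. Ratios were tested with exact permutation tests. Alternatives were DESeq2 1.42.0, other scalings and filters, a replicate block, 2 covariates and omission of each library. No pair of libraries of a group agreed within sampling noise (chi-square per degree of freedom 4.28 to 12.9).

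The 3 members, the gene lists and the tests were chosen with earlier results of these data known. Named genes were the members, genes within 200 kb of Gnas, the 10 genes with the most counts, the 5 genes most like Gm20721 and at most 4 genes with the smallest p from each list, of which a selection is given. Gnal and Ptger4 fall outside this rule and were added once their values had been seen. Of the 5 genes most like Gm20721, 1 is plotted but not reported here by name.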

Additional observations from a re-analysis of the deposited data

How the results depend on the processing

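No alternative called any of the 3 genes. Over 16 settings the log2 fold change of Gm20721 kept its sign (−0.26 to −0.09, adjusted p 0.217 to 0.978 in edgeR or DESeq2), as did that of Nespas (0.26 to 0.52). That of Gnas kept its sign in 15 (adjusted p 0.235 to 0.988 in edgeR or DESeq2 over all 16). It was −0.0787 ± 0.384 (SE) with the ribosomal RNA share, which separated the groups, as a covariate, and the cause was not tested. Leaving out 1 library at a time gave −0.26 to −0.11 for Gm20721, 0.30 to 0.52 for Nespas and 0.20 to 0.69 for Gnas, with the lowest Gnas value without VLX-1005 replicate 2. The log2 ratio to Gm20721 then differed by 0.48 to 0.70 for Nespas and 0.33 to 0.90 for Gnas, again lowest without VLX-1005 replicate 2. The share of the 3 genes, 4.94% over all libraries, was 4.88% to 5.05% in the same omissions and 5.13% of the counts outside CT010467.1 and Casp9.

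The number of genes called, 100, was 197 with DESeq2, 263 without a filter on low counts (18578 genes tested), 164 with a filter at 1 CPM in 3 libraries, 54 with the Casp9 level and 0 with the ribosomal RNA share as a covariate, and 14 to 203 with 1 library left out (14 without vehicle replicate 1, 23, 16 and 18 without vehicle replicates 2, 3 and 4, and 29 and 203 without VLX-1005 replicates 2 and 3). With the replicate number as a block it was 19, the log2 fold changes were −0.17 (Gm20721), 0.51 (Nespas) and 0.57 (Gnas), and the ratios differed by 0.68 (Nespas) and 0.73 (Gnas). Deviations from the group means correlated at −0.03, −0.02 and 0.08 between libraries with the same number. Replicate 3 of each group correlated best with its own number, but not every library did. Deviations from means of 3 or 4 libraries offset each other, so these values cannot decide whether the numbers mark pairs. Gnas rests on 25 to 64 counts per library, which limits its precision.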
